A study of Mus musculus with 9 samples.

Results

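The class III receptor tyrosine kinases and their ligands were followed in 3 mouse haematopoietic cell lines. The members were 5 receptor genes (Kit, Flt3, Csf1r, Pdgfra and Pdgfrb) and 3 ligand genes (Kitl, Flt3l and Csf1), 8 of the 54347 genes in the count table, taken by symbol. Hox-WT and Hox-URE are haematopoietic progenitor lines, each made by immortalising c-Kit+ bone marrow cells of a single mouse with a Hoxb8-ER fusion, which holds Hoxb8, a transcription factor, switched on by estradiol. The genotype of Hox-WT is WT, and Hox-URE carries genotype UREd/d, the homozygous deletion of the URE (upstream regulatory element), a distal enhancer that drives Spi1, which encodes the transcription factor PU.1. URE-AML, called B22 on the labels, is AML blast-like, also carries UREd/d and was grown out in culture from the leukaemic blasts of a single mouse. All lines were kept in IL-3, IL-6, estradiol and stem cell factor (SCF), the product of Kitl, with SCF at 10 ng/ml, so the ligand of the Kit receptor was supplied to every culture. Each line gave 3 libraries of stranded polyA RNA-seq. Nothing states that they came from separate cultures, so p-values measure the spread between libraries, and a difference between lines cannot be told apart from a difference between the single mice they came from. For URE-AML, its leukaemic origin and the way the line was made cannot be told apart from the rest either.

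The class III receptors share an extracellular part of immunoglobulin-like domains and a kinase domain split by an insert. A dimeric ligand joins a pair of receptors, which phosphorylate each other and recruit Src-family kinases, PI3K, phospholipase C gamma and the GRB2-SOS complex that feeds RAS and ERK. In bone marrow, KIT keeps stem cells, progenitors and mast cells alive, FLT3 acts in multipotent and lymphoid-primed progenitors and dendritic cell precursors, and CSF1R is the growth factor receptor of monocytes and macrophages. PDGFRA and PDGFRB are mainly known from mesenchymal cells. The ligands usually come from other cells: stromal and endothelial cells for SCF and CSF-1, and many cell types for FLT3 ligand. PU.1 is a known activator of Csf1r and Flt3. The measurements here are of RNA alone and say nothing of receptor protein at the surface.

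The bases before the start of Kit and Flt3, the receptor genes with the most counts, and of Flt3l, a ligand gene that changed the other way against Hox-WT, are shown because both receptors were lower, and the ligand higher, in the lines with little Spi1 RNA. They are from RefSeq (GRCm38.p6), on the strand of the gene, 5′ to 3′, and stop before the first base of the annotated gene. Capitals mark matches to GAGGAA, the core letters of many PU.1 sites, or to TGTGGT or TGCGGT, core letters of RUNX sites, on either strand. None of these motifs overlapped.
Kit, plus strand, chr5:75574737-75574915: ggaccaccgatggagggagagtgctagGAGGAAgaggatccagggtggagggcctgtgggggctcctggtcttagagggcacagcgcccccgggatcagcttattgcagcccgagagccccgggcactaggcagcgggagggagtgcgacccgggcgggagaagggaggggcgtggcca
Flt3, minus strand, chr5:147400490-147400739: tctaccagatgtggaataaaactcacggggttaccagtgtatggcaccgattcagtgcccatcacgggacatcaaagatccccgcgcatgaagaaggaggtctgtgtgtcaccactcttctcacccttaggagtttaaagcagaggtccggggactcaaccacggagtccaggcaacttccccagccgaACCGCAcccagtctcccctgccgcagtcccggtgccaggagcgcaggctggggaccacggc
Flt3l, minus strand, chr7:45136433-45136682: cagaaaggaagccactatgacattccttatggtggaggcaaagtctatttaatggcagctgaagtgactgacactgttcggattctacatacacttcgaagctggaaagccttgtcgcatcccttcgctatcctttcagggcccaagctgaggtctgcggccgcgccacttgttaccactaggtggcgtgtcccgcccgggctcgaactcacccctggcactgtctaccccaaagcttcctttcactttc
In windows of 250 bases before each RefSeq start, Kit held GAGGAA once, with its nearest base 218 bases before the start, and Flt3 held TGCGGT once on the opposite strand, 56 bases before it. The windows of Kitl, Flt3l, Csf1 and Pdgfra held no match to these motifs or to AGATAA, the core letters of many GATA sites. For Kit, a second RefSeq start 4 bases downstream has the same match. GAGGAA was present in 23.3% of the 32851 promoter windows of this length, TGTGGT or TGCGGT in 18.6% and AGATAA in 9.99%. A match describes letters, not a bound site. The table held windows for 6 of the 8 members, and none was used for Csf1r and Pdgfrb.

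Depth was even, at 20331064 to 28588718 counts a library, and a count of 0 in a library allows a level of up to 0.104 to 0.153 CPM (the count scaled to a common library size with TMM factors), which is what 3 counts amount to and covers counting error only. Of the 54347 genes, 13082 had enough counts to be tested. A gene was called when edgeR's quasi-likelihood test gave a Benjamini-Hochberg adjusted p under 0.05 and the fold change was over 1.5. The lines differed widely: 37.2% of tested genes were called between Hox-URE and Hox-WT (21.3% with the Hox-URE level higher, 15.9% with it lower). URE-AML against Hox-WT gave 43.2% of tested genes called, the sum of 23.0% with the higher level in the leukaemic line and 20.2% with the lower. For URE-AML against Hox-URE it was 42.7%, from 20.4% higher and 22.4% lower. Spi1 had 2932, 2832 and 2791 counts in Hox-WT, 1, 1 and 0 in Hox-URE, and 62, 116 and 148 in URE-AML, so the gene whose enhancer is deleted was nearly silent in Hox-URE and low but present in URE-AML. The 3 comparisons share their lines, so they are not independent of each other.

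Of the 8 members, 7 were tested, and Pdgfra had 0 counts in every library. In Hox-URE against Hox-WT all 7 were called, 4 upwards (Pdgfrb, Kitl, Flt3l and Csf1) and 3 downwards (Kit, Flt3 and Csf1r), against the 37.2% called over all genes. In URE-AML against Hox-WT, 3 were higher (Kitl, Flt3l and Csf1), 3 lower (Kit, Flt3 and Csf1r) and Pdgfrb was not called, against 43.2%. In URE-AML against Hox-URE, 2 were higher (Kit and Csf1), 4 lower (Flt3, Pdgfrb, Kitl and Flt3l) and Csf1r was not called, against 42.7%. Csf1r, Kitl and Flt3 are at or near 0 in at least 1 line and passed the filter on low counts through the lines where they are high, so their calls between such a line and one near 0 were largely set by the filter and the counts of called members are no support by themselves. With at least 10 counts required in every library, Kit, Pdgfrb, Flt3l and Csf1 remain, and 4 members were called between Hox-URE and Hox-WT and 3 between URE-AML and Hox-WT, where 31.9% and 35.9% of all genes tested under that filter were called.

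**Figure D1:**
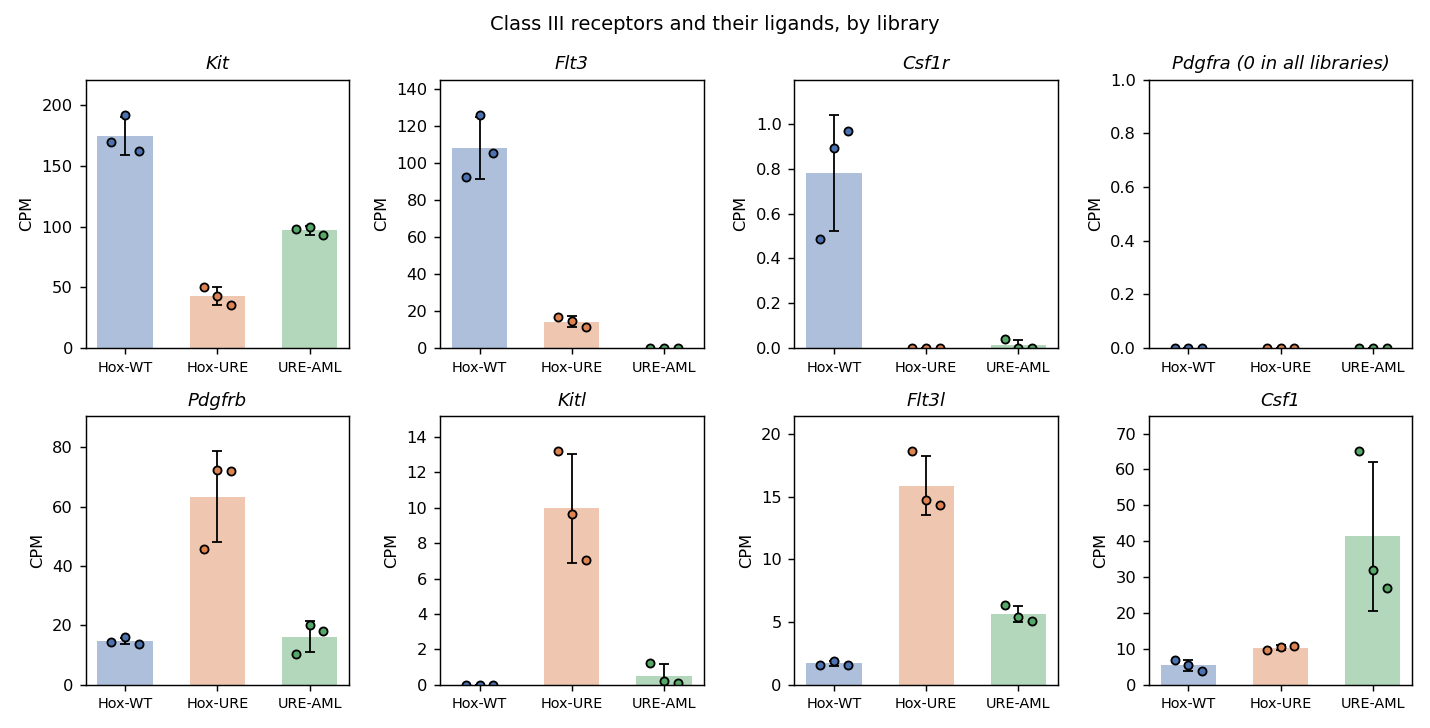
Level of each member in each library, in CPM scaled by TMM factors, with a panel per gene and its own linear axis from 0. Points are libraries, bars are means of 3 libraries and error bars are SD. Kit and Flt3 are highest in Hox-WT, Pdgfrb, Kitl and Flt3l in Hox-URE and Csf1 in URE-AML, and Pdgfra is 0 throughout.

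Kit (ENSMUSG00000005672, chromosome 5, 75574916 to 75656722, plus strand, GRCm38) encodes the SCF receptor, which was also the surface marker used to pick the cells from which the Hox lines were made. It had 4521, 5383 and 4686 counts in Hox-WT, 1392, 1035 and 694 in Hox-URE, and 2437, 2095 and 2162 in URE-AML. The 3 lines did not overlap: Hox-WT was highest, URE-AML was intermediate and Hox-URE was lowest. Hox-WT had 175 ± 15.7 CPM, Hox-URE 43.0 ± 7.62 and URE-AML 96.9 ± 3.67 (SD, n = 3). The Hox-URE level of Kit was 4.05-fold below that of Hox-WT (log2 fold change -2.02 ± 0.13 SE, edgeR adjusted p = 9.74e-07). The URE-AML level was 1.8-fold below Hox-WT (-0.85 ± 0.13, edgeR adjusted p = 0.000217). URE-AML was 2.25-fold above Hox-URE (1.17 ± 0.13, edgeR adjusted p = 2.78e-05).

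Flt3 (ENSMUSG00000042817, chromosome 5, 147330741 to 147400489, minus strand), the receptor of FLT3 ligand and a gene often mutated in human AML, had 2474, 3535 and 3051 counts in Hox-WT and 467, 348 and 219 in Hox-URE. It had 0 in all 3 URE-AML libraries. The level fell from 108 ± 16.9 CPM in Hox-WT to 14.2 ± 2.91 CPM in Hox-URE (SD, n = 3), a 7.59-fold difference (log2 fold change -2.92 ± 0.19 SE, edgeR adjusted p = 5.6e-06). URE-AML was at least 827-fold lower than Hox-WT (edgeR adjusted p = 4.23e-08) and at least 109-fold lower than Hox-URE (edgeR adjusted p = 4.31e-07), with the floor of 3 counts per library in place of 0. URE-AML libraries stood above those of Hox-URE for Kit and below them for Flt3, where the filter on low counts was passed through the Hox lines alone. The antisense gene Gm26597, which lies over Flt3, had 2, 5 and 5 counts in Hox-WT and 0 elsewhere, and it did not have enough counts to be tested.

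Csf1r (ENSMUSG00000024621, chromosome 18, 61100598 to 61132149, plus strand), the receptor of CSF-1 and IL-34, was low even in Hox-WT, with 13, 25 and 28 counts. It had 0 in all Hox-URE libraries, and 1, 0 and 0 in URE-AML. The Hox-WT mean was 0.783 ± 0.259 CPM (SD, n = 3). Hox-URE was at least 6.07-fold lower than Hox-WT (edgeR adjusted p = 0.000463). The ratio of Hox-WT to URE-AML was 54.6, with a 95% counting interval of 9.46 to 2187 that reflects the single count in URE-AML (edgeR adjusted p = 0.000616). Without that library the other URE-AML libraries were at 0, and Hox-WT was at least 5.77-fold higher. No fold can be given between URE-AML and Hox-URE, since both were under the floor. Hmgxb3 overlaps Csf1r on the opposite strand and had 954 to 1630 counts a library. It was not called in any comparison. The pseudogene Csf1r-ps had at most 1 count in any library.

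Pdgfra (ENSMUSG00000029231, chromosome 5, 75152292 to 75198215, plus strand), which lies 376701 bases from Kit, had no count in any library, so at these depths it can be said only to be under the floor. Pdgfrb (ENSMUSG00000024620, chromosome 18, 61045150 to 61085061, plus strand), which lies 15537 bases from Csf1r, was the one receptor with more RNA in Hox-URE. It had 387, 449 and 401 counts in Hox-WT, 1254, 1745 and 1411 in Hox-URE, and 255, 423 and 423 in URE-AML. All Hox-URE libraries stood above the others, while Hox-WT and URE-AML overlapped. The level was 63.3 ± 15.3 CPM in Hox-URE and 14.8 ± 1.11 CPM in Hox-WT (SD, n = 3), 4.28-fold apart (log2 fold change 2.10 ± 0.25 SE, edgeR adjusted p = 7.21e-05). URE-AML, at 16.2 ± 5.20 CPM, was 3.92-fold below Hox-URE (-1.97 ± 0.25, edgeR adjusted p = 8.24e-05). The difference between URE-AML and Hox-WT was not called (0.13 ± 0.25, edgeR adjusted p = 0.688). The neighbour Csf1r went the other way in Hox-URE, but it passed the filter on low counts through Hox-WT alone, which set that direction.

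Among the ligand genes, Kitl (ENSMUSG00000019966, chromosome 10, 100015630 to 100100416, plus strand) encodes SCF. It had 0 counts in all Hox-WT libraries, 362, 233 and 138 in Hox-URE, and 31, 5 and 2 in URE-AML. Hox-URE, at 9.96 ± 3.08 CPM (SD, n = 3), was at least 92.4-fold above Hox-WT (edgeR adjusted p = 0.000187). URE-AML, at 0.525 ± 0.634 CPM, was at least 4.87-fold above Hox-WT (edgeR adjusted p = 0.00991) and 18.4-fold below Hox-URE (log2 fold change -4.20 ± 0.71 SE, edgeR adjusted p = 0.00118). URE-AML library 1 carried most of the URE-AML counts: without it the mean was 0.162 CPM, at least 1.5-fold above Hox-WT (edgeR adjusted p = 0.0142), and the log2 fold change against Hox-URE was -5.93 (edgeR adjusted p = 0.000126).

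Flt3l (ENSMUSG00000110206, chromosome 7, 45129788 to 45136432, minus strand) encodes FLT3 ligand. It had 43, 54 and 46 counts in Hox-WT, 511, 355 and 281 in Hox-URE, and 157, 114 and 119 in URE-AML. No lines overlapped, and the order was Hox-URE, URE-AML, Hox-WT. The means were 15.9 ± 2.36, 5.62 ± 0.641 and 1.71 ± 0.189 CPM in that order (SD, n = 3). Hox-URE was 9.27-fold above Hox-WT (log2 fold change 3.21 ± 0.19 SE, edgeR adjusted p = 5.06e-07), and URE-AML was 3.28-fold above Hox-WT (1.71 ± 0.18, edgeR adjusted p = 2.36e-05) and 2.83-fold below Hox-URE (-1.50 ± 0.17, edgeR adjusted p = 3.82e-05). The next gene, Rpl13a, lies 1027 bases away and had 32367 to 62881 counts a library. Gm45713, which overlaps Flt3l on the same strand, had 28 counts in Hox-WT library 3 and 0 in all others, so the split of reads between these annotated genes is uncertain in that library.

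Csf1 (ENSMUSG00000014599, chromosome 3, 107741048 to 107760469, minus strand) encodes CSF-1, the macrophage growth factor. It had 186, 155 and 114 counts in Hox-WT, 265, 253 and 214 in Hox-URE, and 1611, 672 and 630 in URE-AML. The lines did not overlap in CPM: Hox-WT was at 5.48 ± 1.51, Hox-URE at 10.4 ± 0.650 and URE-AML at 41.3 ± 20.7 (SD, n = 3). URE-AML was 7.55-fold above Hox-WT (log2 fold change 2.92 ± 0.33 SE, edgeR adjusted p = 3.61e-05) and 4.0-fold above Hox-URE (2.0 ± 0.32, edgeR adjusted p = 0.000379). Library 1 held the highest URE-AML value. Without it the mean was 29.5 CPM, and the log2 fold changes were 2.43 and 1.51 (edgeR adjusted p = 1.93e-05 and 0.000348). The 1.89-fold difference between Hox-URE and Hox-WT (0.92 ± 0.33, edgeR adjusted p = 0.0367) was near the threshold and was lost without Hox-WT library 2 or 3, without any 1 of the Hox-URE libraries, with scaling by library size alone and in a test against a fold change of 1.5, with adjusted p of up to 0.204.

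**Figure D2:**
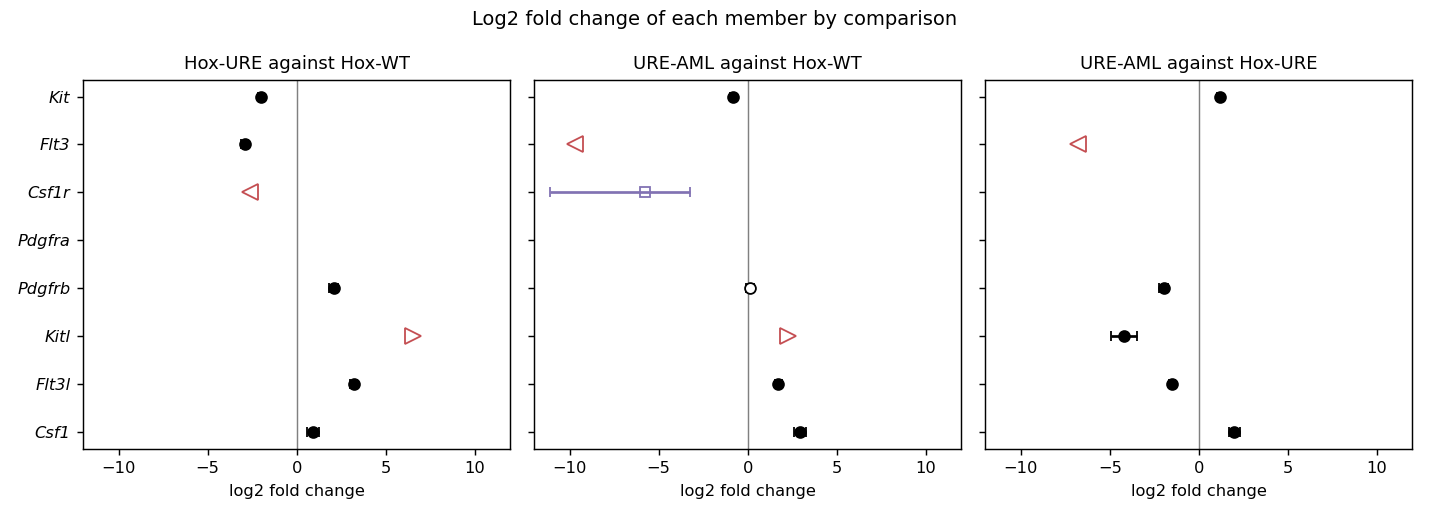
Log2 fold change of each member in the 3 comparisons. Filled circles were called and the open circle was not, with SE as error bars; open triangles are bounds computed with the floor of 3 counts where a line had 0 counts, and the square is a ratio with its 95% counting interval. Kit, Flt3 and Csf1r lie left of 0 and Kitl, Flt3l and Csf1 right of 0 in both comparisons with Hox-WT.

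Levels can be compared between genes only per length, so CPM were divided by the mean length of each gene's annotated protein-coding transcripts. In Hox-WT, Kit (33.4 ± 3.01 CPM per kb, SD, n = 3) and Flt3 (29.6 ± 4.62) were highest, and their ranges overlapped. Csf1 (2.80 ± 0.773), Pdgfrb (2.73 ± 0.205) and Flt3l (2.02 ± 0.224) followed. The range of Csf1 overlapped with both of the others, Pdgfrb stood above Flt3l without overlap, and Csf1r was lowest of those present at 0.321 ± 0.106. In Hox-URE, Flt3l was highest at 18.8 ± 2.79, above Pdgfrb at 11.7 ± 2.83 in every library. Pdgfrb overlapped with Kit at 8.22 ± 1.46, and Kit stood above Csf1 (5.28 ± 0.332), Kitl (4.89 ± 1.51) and Flt3 (3.88 ± 0.797). Among those 3, Csf1 stood above Flt3 without overlap, and Kitl overlapped with both. In URE-AML, Csf1 (21.1 ± 10.5) and Kit (18.5 ± 0.702) overlapped and led, and Flt3l (6.65 ± 0.758), Pdgfrb (2.99 ± 0.959), Kitl (0.258 ± 0.311) and Csf1r (0.00551 ± 0.00955) followed. With the longest transcript in place of the mean, Kit came before Csf1 in URE-AML, Pdgfrb before Csf1 in Hox-WT and Flt3 before Csf1 and Kitl in Hox-URE, where Flt3l and Pdgfrb were then both at 11.7 CPM per kb.

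The makeup of the receptor RNA therefore differed between the lines. Summed over the class, receptors amounted to 66.0 ± 7.52 CPM per kb in Hox-WT, 23.8 ± 1.48 for Hox-URE and 21.5 ± 1.09 for URE-AML (SD, n = 3). Kit was 50.7% of this sum in Hox-WT, Flt3 44.7%, Pdgfrb 4.15% and Csf1r 0.484%. In Hox-URE, Pdgfrb was 49.0%, Kit 34.7% and Flt3 16.4%. In URE-AML, Kit was 86.2% and Pdgfrb 13.8%. The Pdgfrb share ran from 37.0% to 57.5% over the Hox-URE libraries, above the highest value of 4.42% in Hox-WT and 16.3% in URE-AML. The ratio of Flt3l to Flt3, per length, was 0.0652 to 0.0752 in Hox-WT and 4.41 to 5.55 in Hox-URE, and the ratio of Kitl to Kit was 0 in Hox-WT, against 0.510 to 0.667 for Hox-URE and 0.00237 to 0.0326 for URE-AML. With the longest transcripts, the level of Flt3l per length is 1.61 times smaller and that of Kitl 2.77 times smaller, and these ratios shrink accordingly. These are shares of RNA in a whole culture. Fewer cells expressing a gene and less of its RNA in each cell cannot be told apart in bulk libraries.

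**Figure D3:**
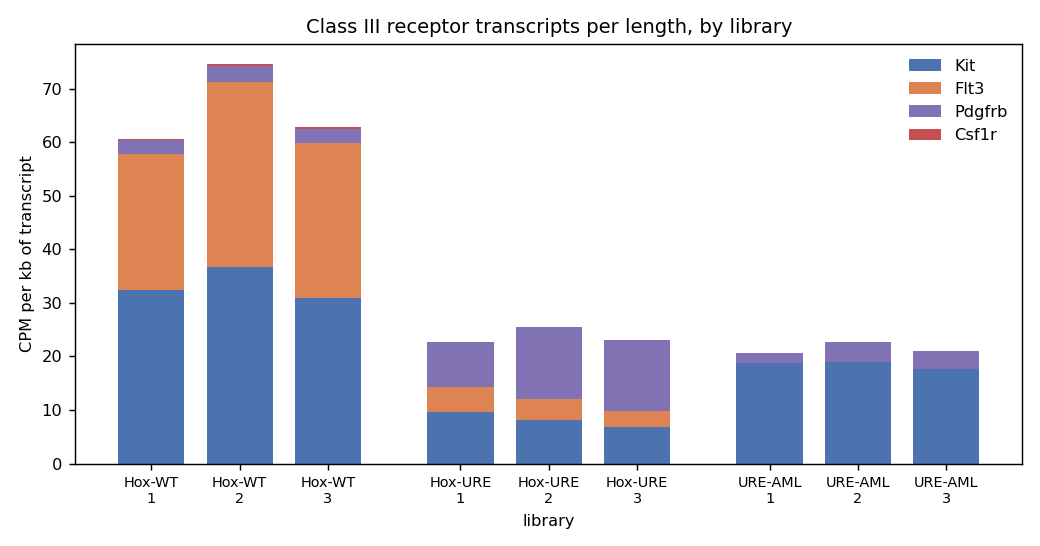
RNA of the class III receptors in each library, in CPM per kb of transcript, stacked by receptor. Hox-WT libraries reach 60.6 to 74.6 and consist mostly of Kit and Flt3; Hox-URE libraries hold Pdgfrb, Kit and Flt3; URE-AML libraries hold mostly Kit.

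Other ligands of these receptors were sparse. Of 5 listed, 3 were tested, and they are set beside the 37.2%, 43.2% and 42.7% of all tested genes called in the 3 comparisons. Hox-URE had 2 called above Hox-WT and none below it, URE-AML also had 2 above Hox-WT and none below it, and 1 above Hox-URE and 1 below that line. Without Hox-WT library 3, or tested against a fold change of 1.5, 1 was called above Hox-WT in Hox-URE. With at least 10 counts required in every library none could be tested or called: Pdgfa had 8 in its lowest library, and Il34 and Pdgfc each passed the usual filter through 1 line, which set the direction of their calls. Il34, whose product also binds CSF1R, was 0 in both Hox lines and 1.02 ± 0.687 CPM in URE-AML (SD, n = 3), at least 9.44-fold above Hox-WT (edgeR adjusted p = 0.00183). Without URE-AML library 3, the highest, its mean was 0.625 CPM, at least 5.80-fold above Hox-WT. Pdgfa, a ligand of PDGFRA, was at 0.483 ± 0.239 CPM in Hox-WT, with 1.22 ± 0.130 for Hox-URE and 2.20 ± 0.312 for URE-AML. Pdgfc was found only in Hox-URE, at 0.854 ± 0.123 CPM, at least 7.92-fold above Hox-WT (edgeR adjusted p = 0.0005). Kdr, a VEGF receptor gene that lies 276105 bases beyond Kit, was 0 in both Hox lines and had 44, 79 and 114 counts in URE-AML, at least 32.2-fold above Hox-WT (edgeR adjusted p = 0.000268). Kdr passed the filter through URE-AML alone, which set the direction of that call.

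Genes of proteins that act next to the receptors were called lower more often than higher in each comparison. Of 19 tested adaptors, Src-family kinases and other proximal proteins, Hox-URE had 7 called below Hox-WT and 1 above it, URE-AML had 8 below Hox-WT and 2 above it, and 7 below Hox-URE and 3 above that line, where 15.9%, 20.2% and 22.4% of all tested genes were called lower, with medians of -0.23, -0.22 and -0.43 (log2 fold change). Fyn, a Src-family kinase, was at 33.9 ± 2.87 CPM in Hox-WT, with 16.8 ± 1.05 for Hox-URE and 2.76 ± 0.433 for URE-AML (SD, n = 3), and the differences from Hox-WT were called (edgeR adjusted p = 9.72e-05 and 2.01e-08). Plcg2, a phospholipase C gamma, went from 455 ± 13.7 to 187 ± 2.46 and 139 ± 21.9 CPM in the same order. Gab2, the docking adaptor that links KIT to PI3K, was the one called higher in Hox-URE, at 120 ± 3.75 against 66.0 ± 5.78 CPM (log2 fold change 0.87 ± 0.10 SE, edgeR adjusted p = 7.05e-05).

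In the downstream cascades, the counts of called genes are read against the 37.2% (Hox-URE against Hox-WT), 43.2% (URE-AML against Hox-WT) and 42.7% (URE-AML against Hox-URE) of all tested genes called in either direction. Of 13 tested genes of the PI3K-AKT branch, Hox-URE had 2 called above Hox-WT and 2 below it, URE-AML had 1 above Hox-WT and 3 below it, and 1 above Hox-URE and none below that line. The 1 call above Hox-WT in URE-AML was lost without Hox-WT library 2, Hox-URE library 2 or URE-AML library 1. Without Hox-WT library 2, URE-AML also had 2 below Hox-WT in place of 3. The regulatory subunit Pik3r1 was lower in both UREd/d lines, at 72.4 ± 1.94 CPM in Hox-WT, with 44.4 ± 2.55 for Hox-URE and 34.9 ± 0.722 for URE-AML (SD, n = 3). Tested against a fold change of 1.5, neither call below Hox-WT in Hox-URE held, that of Pik3r1 included, and URE-AML had 2 below Hox-WT and none above it. Of 13 tested genes of the RAS-ERK branch, Hox-URE had 1 called above Hox-WT and 1 below it, URE-AML had 3 above Hox-WT and 1 below it, and 4 above Hox-URE and none below that line. Mapk3, which encodes ERK1, rose from 74.6 ± 5.30 CPM (Hox-WT) through 121 ± 24.8 (Hox-URE) up to 238 ± 12.2 (URE-AML), and all 3 differences passed the test (edgeR adjusted p = 0.00203, 4.27e-06 and 0.000189). It was the 1 gene of this branch called above Hox-WT in Hox-URE, and that call was lost without Hox-URE library 2 and when tested against a fold change of 1.5. Rps6ka3, an ERK-activated kinase, was at 175 ± 1.02 CPM in Hox-WT, with 72.4 ± 12 for Hox-URE and 59.5 ± 2.53 for URE-AML.

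Negative regulators and ERK-responsive genes were called in both directions. The background for their counts is the share of all tested genes: 21.3% of these rose and 15.9% fell from Hox-WT to Hox-URE. The shares from Hox-WT to URE-AML were 23.0% up and 20.2% down, and those between the UREd/d lines were 20.4% up and 22.4% down. Of 17 tested negative regulators of receptor signalling, Hox-URE had 7 called above Hox-WT and 4 below it, URE-AML had 5 above Hox-WT and 6 below it, and 1 above Hox-URE and 10 below that line, with medians of 0.25, -0.05 and -0.68 (log2 fold change). When tested against a fold change of 1.5, the 10 called below Hox-URE became 5. Lrig1, a membrane protein that restrains receptor kinases, was 0 in Hox-WT, with 44.2 ± 2.25 CPM for Hox-URE and 5.16 ± 0.306 for URE-AML (SD, n = 3), at least 410-fold above Hox-WT in Hox-URE (edgeR adjusted p = 1.64e-08). Lrig1 passed the filter on low counts through the UREd/d lines, which set the direction of its calls against Hox-WT. Sh2b3, which encodes the KIT and FLT3 inhibitor LNK, was at 42.7 ± 3.71 CPM in Hox-WT, with 105 ± 8.39 for Hox-URE and 28.4 ± 5.47 for URE-AML, and its rise in Hox-URE (log2 fold change 1.30 ± 0.14 SE) and its drop from there to URE-AML (-1.89 ± 0.15) were called. Dok2, an adaptor that recruits RasGAP, was higher in both UREd/d lines, at 59.3 ± 5.12 and 80.6 ± 8.64 CPM against 10.9 ± 1.44. Cbl, the ubiquitin ligase that sends KIT and CSF1R to degradation, was 44.6 ± 1.20 CPM in URE-AML against 110 ± 18.1 in Hox-WT (-1.30 ± 0.14, edgeR adjusted p = 2.15e-05).

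Of 13 tested feedback and early target genes of ERK, Hox-URE had 9 called above Hox-WT and 1 below it (median log2 fold change 0.96), URE-AML had 3 above Hox-WT and 3 below it (median -0.06), and 1 above Hox-URE and 6 below that line (median -0.52), beside the shares of all tested genes given above. Spry1, a feedback inhibitor of receptor kinases, was at 11 ± 1.02 CPM in Hox-WT, with 48.3 ± 1.20 for Hox-URE and 9.73 ± 0.416 for URE-AML (SD, n = 3), with a log2 fold change of 2.13 ± 0.10 SE in Hox-URE (edgeR adjusted p = 1.51e-07). Etv5, an ETS factor induced by ERK, was 10.4 ± 1.99, 45.8 ± 8.65 and 15.4 ± 1.42 CPM in the same order. Phlda1 was higher still in URE-AML, at 0.229 ± 0.0647, 1.66 ± 0.347 and 8.50 ± 1.26 CPM. Ccnd1, which encodes cyclin D1, was the one called lower in Hox-URE: Hox-WT exceeded it by a ratio of 468 (95% counting interval 83.7 to 18529), from 6.61 ± 1.16 CPM to a single count. In URE-AML it was at 0.0840 ± 0.0672 CPM, so it passed the filter on low counts through Hox-WT alone, which set that direction. The RNA of Kit and Flt3 was lower in Hox-URE and most of the ERK-responsive genes tested were higher there. A link between them was not tested.

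Surface release and transcription factors were also checked. ADAM proteases cut KIT, CSF1R and the membrane forms of SCF and CSF-1 from the cell. Of 5 tested protease and cofactor genes, against 37.2%, 43.2% and 42.7% called over all genes in the 3 comparisons, Hox-URE had 3 called above Hox-WT and 1 below it, URE-AML had 3 above Hox-WT and 2 below it, and 2 above Hox-URE and 1 below that line. The 1 call below Hox-WT in Hox-URE was lost without Hox-WT library 2 or Hox-URE library 1, and a test against a fold change of 1.5 left 2 above and none below. With at least 10 counts required in every library, Hox-URE had 1 above Hox-WT and 1 below it, and URE-AML had 1 above and 2 below. Under that filter 31.9% and 35.9% of all tested genes were called. Rhbdf2, a cofactor of ADAM17, was at 8.80 ± 0.675 CPM in Hox-WT, with 16.7 ± 2.97 for Hox-URE and 37.6 ± 8.74 for URE-AML (SD, n = 3). Adam17 itself was 136 ± 6.74, 124 ± 18.6 and 58.2 ± 5.76 CPM, with URE-AML below Hox-WT (log2 fold change -1.22 ± 0.12 SE, edgeR adjusted p = 1.3e-05). Timp3, an ADAM inhibitor, was 0 in Hox-WT, with 3.71 ± 1.14 CPM for Hox-URE and 5.33 ± 2.51 for URE-AML.

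For transcription factors known to act at Kit, Flt3 or Csf1r, the shares of all tested genes called were 21.3% up and 15.9% down in Hox-URE, 23.0% up and 20.2% down in URE-AML, both against Hox-WT, and 20.4% up and 22.4% down between the UREd/d lines. Of 11 tested, Hox-URE had 3 called above Hox-WT and 3 below it, URE-AML had 2 above Hox-WT and 6 below it, and 2 above Hox-URE and 4 below that line. The 2 above Hox-WT in URE-AML became 1 without Hox-WT library 1 or 3, Hox-URE library 2 or any URE-AML library, and tested against a fold change of 1.5 there were 1 above and 4 below. Spi1 was at 102 ± 6.79 CPM in Hox-WT, with 0.0259 ± 0.0226 for Hox-URE and 4.79 ± 2.02 for URE-AML (SD, n = 3), with URE-AML 21.5-fold below Hox-WT (log2 fold change -4.42 ± 0.28 SE, edgeR adjusted p = 4.53e-07). The ratio of Hox-WT to Hox-URE was 3642 (95% counting interval 1008 to 30077, edgeR adjusted p = 6.56e-08), and that of URE-AML to Hox-URE was 168 (46.1 to 1392, edgeR adjusted p = 4.29e-06). Myb, an activator of Kit and Flt3 in progenitors, was 299 ± 25.3 CPM in Hox-WT and 167 ± 14.9 in Hox-URE (edgeR adjusted p = 0.000124). Gata2, a GATA factor of stem and mast cells, was at 109 ± 3.29 CPM in Hox-WT, with 217 ± 24.0 for Hox-URE and 9.13 ± 3.66 for URE-AML, so URE-AML combined the intermediate level of Kit with the lowest level of Gata2. Meis1, a HOX cofactor, was 10.5 ± 1.29 CPM in Hox-WT and 8.78 ± 3.91 in Hox-URE, and like Flt3 it was nearly absent in URE-AML (Hox-WT exceeded it by a ratio of 363, 95% counting interval 100.3 to 3004).

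Receptor kinases of other classes are set beside the 37.2%, 43.2% and 42.7% of all tested genes called in the 3 comparisons. Of 53 listed, 20 were tested: Hox-URE had 5 called above Hox-WT and 7 below it, URE-AML had 10 above Hox-WT and 7 below it, and 11 above Hox-URE and 3 below that line. With at least 10 counts required in every library, fewer of them could be tested, and 3, 4 and 5 were called. Under that filter 31.9%, 35.9% and 35.5% of all tested genes were called. Met, the hepatocyte growth factor receptor, was 71.4 ± 9.25 CPM in Hox-WT and 0 in URE-AML (SD, n = 3). URE-AML was thus at least 546-fold lower (edgeR adjusted p = 1.13e-07). The Hox-URE level of Met was under the floor as well, with a mean of 0.0364 ± 0.0630 CPM. Met passed the filter on low counts through Hox-WT alone, which set the direction of its calls against that line. Igf1r, the IGF-1 receptor, was at 32.3 ± 5.04 CPM in Hox-WT, with 45.7 ± 6.84 for Hox-URE and 189 ± 21.4 for URE-AML. Flt1, a VEGF receptor, was 78.4 ± 18.4 CPM in Hox-URE and 335 ± 11.7 in URE-AML. Tyro3 was higher in both UREd/d lines, at 4.4 ± 0.461 and 8.47 ± 0.955 against 0.743 ± 0.106 CPM.

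**Figure D4:**
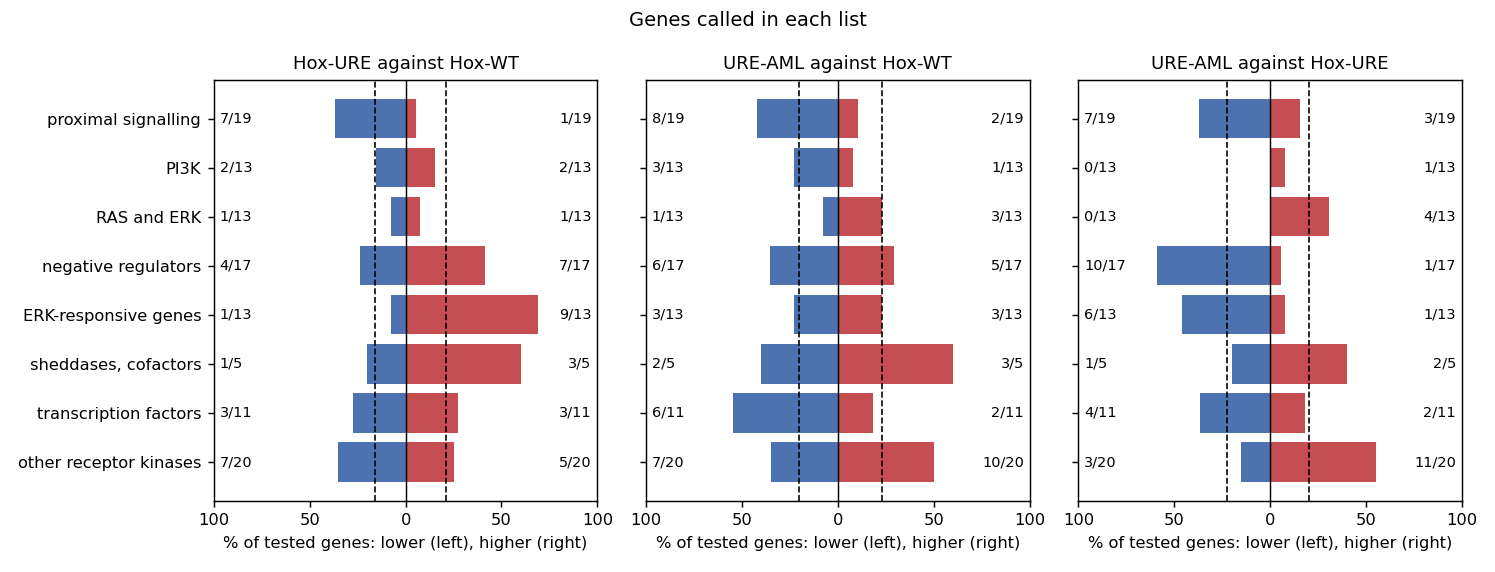
Share of the tested genes of each list that was called lower (left, blue) or higher (right, red) in the first line of each comparison, in percent, with counts beside the bars. Dashed lines mark the share of all 13082 tested genes called in that direction. ERK-responsive genes are called higher in 9 of 13 in Hox-URE against Hox-WT, and negative regulators lower in 10 of 17 in URE-AML against Hox-URE.

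The cell type on the labels was checked against markers, since these receptors are themselves used as markers. The counts of called markers go with the same 37.2%, 43.2% and 42.7% over all tested genes, and a marker at 0 in a line was tested through the other lines. Of 7 myeloid progenitor markers, all had a mean of at least 1 CPM in the Hox lines and 6 in URE-AML, with a summed level of 7437 to 11113 CPM in Hox-WT, 3388 to 5277 for Hox-URE and 7646 to 17357 for URE-AML. In Hox-URE, 6 of them were called below Hox-WT and none above it, and in URE-AML 4 were below and 3 above it. Mpo dropped from 5040 ± 1515 CPM in Hox-WT to 5.04 ± 4.44 in Hox-URE (SD, n = 3). Cd33 went from 332 ± 31.1 to 1.25 ± 0.645 and Elane from 180 ± 62.4 to 9.28 ± 1.28. The summed level hides these drops, and Elane alone was at 7307 ± 3114 CPM in URE-AML. Cd34, a surface marker of progenitors, had 1 count over the URE-AML libraries. Mast cells keep Kit as they mature. Of 10 mast cell and basophil markers, 6 were tested: 5 were called above Hox-WT in the Hox-URE line and none below it, and URE-AML had 1 above Hox-WT and 3 below it. The summed level was 497 to 822 CPM in Hox-WT, 1595 to 6124 for Hox-URE and 37.0 to 71.0 for URE-AML. Cpa3 was the highest in Hox-URE, at 2663 ± 1837 CPM (SD, n = 3). Prss34, which the authors used for basophil progenitors, went from 0.213 ± 0.0901 CPM in Hox-WT to 705 ± 336 in Hox-URE. Ms4a2 was not called there. With at least 10 counts required in every library, 3 were called above Hox-WT in Hox-URE, where 31.9% of all genes were called. Mcpt4 was at 0 in all lines, Fcer1a in both Hox lines, and Tpsab1, Tpsb2 and Cma1 in Hox-WT. The part of this shift in the results for Kit and Kitl was not tested.

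Monocytes and macrophages are the main cells with Csf1r. Of 9 of their markers, 8 were tested: Hox-URE had 6 called below Hox-WT and 1 (Ccr2) above it, and URE-AML had 4 below and 1 (Cd14) above it. Csf1r is itself on this list. With at least 10 counts required in every library, Hox-URE had 1 above Hox-WT and 1 below it, and URE-AML had 1 above and none below. Under that filter 31.9% and 35.9% of all tested genes were called. Their summed level was 355 to 390 CPM in Hox-WT, 846 to 946 in Hox-URE, where Ccr2 held most of it at 885 ± 49.7 CPM, and 123 to 332 in URE-AML. Fcgr1 and Csf1r were at 0 in Hox-URE, and Fcgr1 and Ly86 in URE-AML. Of 8 lymphoid markers, 5 were tested, and against Hox-WT there was 1 called above and 2 below in Hox-URE, and 4 below and none above in URE-AML. None was called in any comparison with at least 10 counts required in every library. Their summed level was 77.8 to 125 CPM in Hox-WT, 51.6 to 83.7 for Hox-URE and 0.129 to 0.238 for URE-AML, the line in which Flt3 was at 0. Cd3e was at 0 in all lines, Il7r in both Hox lines, Rag1, Rag2 and Pax5 in both UREd/d lines and Dntt in URE-AML. The part of these markers in the results for Csf1r and Flt3 was not tested.

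Of 7 dendritic cell markers, 1 was tested and it was not called in any comparison. Their summed level was 36.4 to 40.3 CPM in Hox-WT, 25.5 to 51.7 for Hox-URE and 25.8 to 29.7 for URE-AML, and Clec9a, Siglech and Cd209a were at 0 throughout. Fibroblasts and endothelial cells are well known sources of Pdgfrb, Kitl and Csf1. Of 8 of their markers, 3 were tested: against Hox-WT there was 1 above and none below in Hox-URE, and 1 above and 2 below in URE-AML. With the replicate number as a block, or without Hox-URE library 3, there was 1 above and 1 below in Hox-URE. Their summed level was 168 to 174 CPM in Hox-WT, 218 to 229 for Hox-URE and 623 to 835 for URE-AML, nearly all of it Pecam1, which blood cells also express. Col3a1, Dcn, Lum and Cdh5 were at 0 in all lines. Col1a2, a collagen gene, was the one called above Hox-WT in Hox-URE, where Pdgfrb and Kitl were also highest, at 2.69 ± 1.28 CPM against 0.871 ± 0.0840 (edgeR adjusted p = 0.0153). That call was lost without Hox-WT library 1, Hox-WT library 2 or Hox-URE library 2, and when tested against a fold change of 1.5. Its part in their results was not tested. Between the UREd/d lines, URE-AML had 4 progenitor markers above Hox-URE and 1 below it, 2 and 1 of the monocyte list, none and 6 of the mast cell list, none and 3 of the lymphoid list, and 1 and 1 of the fibroblast and endothelial list.

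The genes whose pattern over the 9 libraries was most like that of a receptor, by Pearson's r of log2(CPM + 1), were Bmi1, Slc25a45 and Rgs19 for Kit (each r = 0.996), Pank1 (r = 0.999), Trp53i11 (r = 0.998) and Mex3a (r = 0.997) for Flt3, and Postn (r = 0.998), Cd79b (r = 0.998) and Lpo (r = 0.997) for Csf1r. Bmi1, a Polycomb gene of stem cell renewal, was 108, 26.4 and 57.6 CPM in the order Hox-WT, then Hox-URE, then URE-AML. Pank1 was 16.7, 4.16 and 0.0586 CPM. Postn was 2.92 CPM in Hox-WT and 0 in the others. With 3 lines, the pattern rests on 3 levels, and 4, 21 and 15 genes had an r over 0.99 with Kit, Flt3 and Csf1r, so this likeness is a description of these libraries.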

How the data were processed

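Stranded polyA libraries (3 per line, 9 in all) were made by the authors from the lines Hox-WT, Hox-URE and, from leukaemia, URE-AML. The authors quantified reads with Salmon on GRCm38, per the labels, and summed transcripts to genes with tximport. The Salmon version and transcriptome release are not given in the sources used here. The values the authors deposited are estimated counts per gene from that step, which share reads of near-identical transcripts by estimation. They were whole numbers and were used as deposited. The table had no rows without a gene and no unused sample columns. Samples were grouped by the cell line on the labels. Genes with enough counts in at least 3 libraries by edgeR's filterByExpr (minimum count 10) were kept, 13082 of 54347, and the filtered genes held 0.0499% of counts. Counts were scaled by TMM and tested in 1 edgeR quasi-likelihood fit over all 9 libraries (edgeR 4.0.16, limma 3.58.1, R 4.3.3), with Benjamini-Hochberg adjustment over all tested genes, and a call needed an adjusted p under 0.05 together with a change of over 1.5-fold. The common biological coefficient of variation was 0.173. The test was checked on simulated data with known changes. Coordinates and lengths come from GENCODE M21 on GRCm38, which held 54094 of the 54347 IDs. Promoter sequences came from RefSeq.

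The named genes were the 8 members, Spi1, at most 4 called genes per list and comparison with the smallest p, and the 3 genes most like each of Kit, Flt3 and Csf1r by correlation. Kdr, Hmgxb3, Rpl13a, Gm26597, Gm45713 and Csf1r-ps are named as neighbours or copies of members, and single markers for their levels. The members and lists were chosen with earlier results of these data known, so counts over them describe these libraries and are not independent evidence. Same-numbered Hox-WT and Hox-URE libraries deviated together (r = 0.393, 0.216 and 0.294 over genes), a hint that the numbers pair these lines. The fit behind the reported p-values did not use this pairing, and the replicate block was run only as an alternative. Alternatives were other scalings, filters, fold change thresholds, DESeq2 1.42.0, the replicate number as a block, fits of 6 libraries and leaving out each library. Figures were drawn with matplotlib 3.10.9. Some genes of the lists are counted but not reported here by name.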

Additional observations from a re-analysis of the deposited data

How the results depend on the processing

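Each value of the members was recomputed under 19 alternatives. Of 445 recomputed values, 435 kept their direction and their side of the threshold, 7 lost their call, 1 changed sign and 2 moved. The 7 lost calls were all of Csf1 between Hox-URE and Hox-WT, whose log2 fold change stayed between 0.71 and 1.12. The sign change was that of Pdgfrb between URE-AML and Hox-WT, which was not called and went from 0.13 to -0.057 without URE-AML library 2 and to 0.37 without library 1, its range over left-out libraries. With at least 10 counts required in every library, 4 members in place of 7 were called between Hox-URE and Hox-WT and 3 in place of 6 between URE-AML and Hox-WT, because fewer members were then tested. Leaving out each library in turn gave 6 to 7 called members between Hox-URE and Hox-WT and 6 in both other comparisons. With the replicate block, the log2 fold change of Kit between Hox-URE and Hox-WT was -2.03, 7 members were called as without it, and no member's call changed in any comparison. Same-numbered libraries of URE-AML and the Hox lines correlated by 0.0584 to 0.188, and 9 of 9 libraries correlated best with their own number, as a hint from the data. Of 855 counts of called list genes, 809 stayed within 1.5 times of the main count and 46 did not. Scaling by library size alone moved the median log2 fold change of all genes by -0.107 between Hox-URE and Hox-WT and by 0.111 between URE-AML and Hox-URE, and turned no direction of a called member. Depth limits Csf1r, Kitl and Flt3 in the lines where they are at or near 0 to bounds set by the floor of 3 counts.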
